A study of Mus musculus with 12 samples.

Results

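The genes described here are the ion channel genes that cultured mouse cardiac fibroblasts transcribed, taken by symbol: potassium (Kcn), calcium (Cacna, Cacnb, Cacng), sodium (Scn), TRP (Trpc, Trpm, Trpv), Piezo, CLC (Clcn), anoctamin (Ano) and P2X (P2rx) genes, with the calcium release channels Ryr1 to Ryr3 and Itpr1 to Itpr3. A gene had to be protein coding and to hold at least 50 raw counts over the 12 libraries. That gave 108 genes, of 176 protein-coding genes with such symbols and 29030 genes in either deposited table. Just inside the minimum lay Kcnu1 with 52 counts, Kcnf1 with 52 and Kcng4 with 54, and just outside lay Kcna6 with 47, Kcnk7 with 48 and Kcnk10 with 48. Trpc4ap, an associated protein, and Trpc5os match the symbols without being channels and were kept. Kcna5 with 24 counts and Kcnj8 with 23 fell below the minimum.

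Fibroblasts make and remodel the matrix of the heart, and they are not electrically excitable as cardiomyocytes are. Their channels set the resting potential, which potassium channels dominate, and carry calcium, which enters through TRP, Piezo and P2X channels or leaves the endoplasmic reticulum through inositol trisphosphate (IP3) receptors. Most CLC proteins work inside the cell, in endosomes and lysosomes, where they exchange chloride for protons. Anoctamins are calcium-activated chloride channels or lipid scramblases, and Ano1 and Ano6 act at the plasma membrane.

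All 4 groups were primary cardiac fibroblasts of C57BL/6 mice, kept in DMEM with fetal bovine serum, with no genetic change named in the labels. The groups received ethanol vehicle for 4 h, 6 µM MCB-613-10-1 for 4 h, vehicle for 24 h or 6 µM MCB-613-10-1 for 24 h, with 3 libraries each. MCB-613-10-1 is a derivative of MCB-613, and the series asks what signals it sets off in these cells. The labels do not say whether the 3 libraries of a group came from separate cultures or animals, and p-values then measure only how far these samples spread, which may be technical spread. Group means in the 24 h data are named with a prefix that is absent at 4 h and explained nowhere in the labels, so the effect of time and of any other difference between the 4 h and 24 h libraries cannot be told apart.

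Libraries held 25016754 to 34877090 counts. At 4 h the vehicle library of replicate 1 stood apart from its group. The chi-square per degree of freedom, a ratio of variances, was 34.6 and 36.7 between its counts and those of its partners. Between the partners it was 7.82. All 10 fibroblast markers were detected, and their summed level was 14717 to 19734 CPM (normalised read counts, library-size scaled within a time) in vehicle libraries of both times, 14604 to 17088 CPM with the compound at 4 h and 6868 to 7236 CPM with it at 24 h. Most of that sum was Col1a1, Vim and Col1a2. At 24 h 8 of these markers fell, Ddr2 rose (log2 0.62) and Dcn was not called. Of the 12 cardiomyocyte markers, summed at 24 CPM or less in every library, most of the signal was Tnnt2. Summed CPM in vehicle and treated libraries at 24 h were 341 to 400 and 158 to 181 for 10 macrophage and leukocyte markers, 1766 to 2006 and 609 to 650 for 10 smooth muscle and pericyte markers, and 61.9 to 76.3 and 9.4 to 12 for the 7 Schwann and neuron markers in the tables. Most of the smooth muscle sum was Acta2, which activated fibroblasts express too (mean 1787 CPM in vehicle and 612 CPM in treated libraries). Most of the macrophage sum was Lyz2 (266 and 95.7 CPM). In bulk RNA, fewer cells of a type and less RNA per cell cannot be told apart.

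Promoter sequences from RefSeq (GRCm38.p6, another build than the GRCm39 of the count tables) were at hand for 81 of the 108 genes. Those of 4 genes that carry the results below are shown, from 250 bases before to 50 after a transcript start: Kcne4, the gene called in opposite directions at the 2 times, P2rx7, whose rise was among the largest at 24 h, and Clcn3 and Clcn5 of the CLC group, in which 6 of 7 genes rose at 24 h. Capitals mark matches, on either strand, to the antioxidant response element (TGANNNNGC) or to AP-1 (TGANTCA). Heat shock (GAANNTTC or TTCNNGAA) and ATF4/CEBP (TGATGNAA) motifs were searched too.
Kcne4 promoter, chr1:78816661-78816960, plus strand: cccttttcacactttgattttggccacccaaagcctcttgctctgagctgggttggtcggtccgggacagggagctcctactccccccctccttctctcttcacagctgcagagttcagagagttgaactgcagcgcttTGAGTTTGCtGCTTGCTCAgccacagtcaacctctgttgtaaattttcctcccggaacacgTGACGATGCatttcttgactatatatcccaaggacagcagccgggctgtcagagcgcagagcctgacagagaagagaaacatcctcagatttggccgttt
P2rx7 promoter, chr5:122643677-122643976, plus strand: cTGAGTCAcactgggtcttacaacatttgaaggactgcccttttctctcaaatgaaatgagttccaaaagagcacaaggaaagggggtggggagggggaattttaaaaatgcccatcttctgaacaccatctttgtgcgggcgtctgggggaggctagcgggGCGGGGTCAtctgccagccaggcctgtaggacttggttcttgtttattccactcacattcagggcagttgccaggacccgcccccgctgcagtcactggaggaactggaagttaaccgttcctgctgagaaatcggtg
Clcn3 promoter, chr8:60954750-60955049, minus strand: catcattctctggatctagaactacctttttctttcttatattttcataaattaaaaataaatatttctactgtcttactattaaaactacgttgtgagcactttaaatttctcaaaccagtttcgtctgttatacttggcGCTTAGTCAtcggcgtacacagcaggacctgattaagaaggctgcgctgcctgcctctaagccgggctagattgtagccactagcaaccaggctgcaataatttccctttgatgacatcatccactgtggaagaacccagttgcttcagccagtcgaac
Clcn5 promoter, chrX:7188665-7188964, minus strand: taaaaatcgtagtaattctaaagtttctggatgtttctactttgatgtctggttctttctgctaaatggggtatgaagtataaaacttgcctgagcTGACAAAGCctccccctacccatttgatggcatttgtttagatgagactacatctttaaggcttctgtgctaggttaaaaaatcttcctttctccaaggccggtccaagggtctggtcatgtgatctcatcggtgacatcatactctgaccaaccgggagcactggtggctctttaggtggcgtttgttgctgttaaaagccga
The Kcne4 window held 3 matches, all to the antioxidant response element. The P2rx7 window held 2, an AP-1 match and an antioxidant response element match, and the Clcn3 and Clcn5 windows held 1 antioxidant response element match each. The table gives a further promoter for Clcn3, Clcn5 and P2rx7: those of Clcn3 and Clcn5 held no match, and that of P2rx7 held 1 heat shock match. The antioxidant response element letters stood in 36.8% of the 117 promoters of these channel genes and in 41.3% of all 32851 promoters. For AP-1 the shares were 3.42% and 7.81%, for the heat shock motif 12% and 15.1%, and for ATF4/CEBP 2.56% and 3.97%. A match is a stretch of letters and says nothing of binding.

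Piezo1, the mechanically gated cation channel, was the most abundant member. Divided by gene length, its mean level was 69.8 CPM per kb in vehicle at 4 h, 88.9 with the compound at 4 h, 42.9 in vehicle at 24 h and 59.9 with the compound at 24 h. Clcn7, the lysosomal CLC exchanger, came next over the 12 libraries at 19.2 CPM per kb, followed by Cacng7 at 17.2, Trpc4ap at 17.0, Ano6 at 13.2, Trpm7 at 11.9, P2rx7 at 11 and Kcnj15 at 9.64. From Clcn7 to Trpc4ap the neighbours lay closer together than each gene's own range over the 4 groups. Only 39 of the 108 genes reached a mean FPKM of 1, the deposited length-scaled unit. A total of 16 genes, with 52 to 104 counts each, were too low to test at either time. The genes described by name below follow a rule given with the methods, except where stated.

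**Figure D1:**
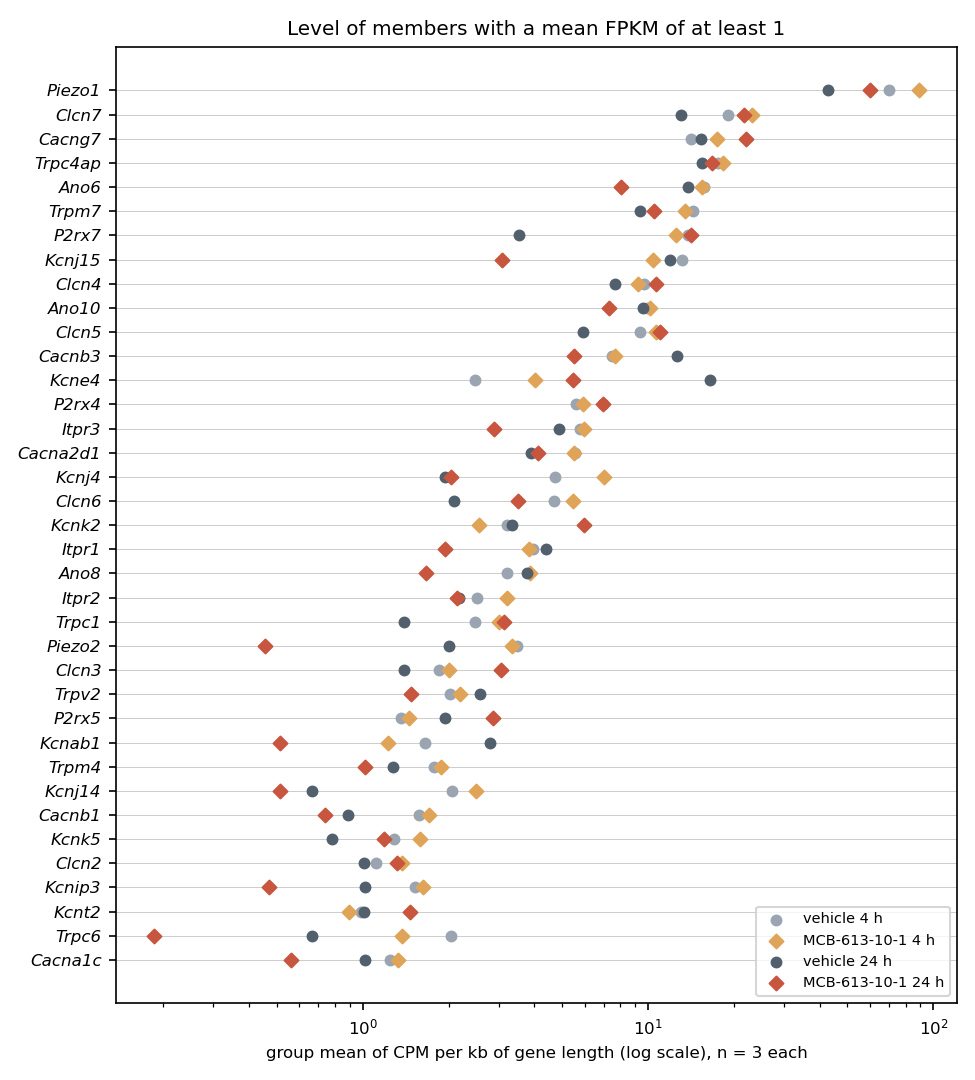
Mean level of members with a mean FPKM of at least 1, as CPM per kb of gene length on a log axis, 1 symbol per group (n = 3 libraries). Piezo1 stands to the right of every other gene in all 4 groups, and P2rx7, Kcne4, Kcnab1, Piezo2 and Kcnj15 show wide gaps between symbols.

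After 4 h of the compound few of the channel genes differed from vehicle. Of 88 genes tested, 3 rose (Piezo1, Kcne4 and Kcnma1) and 1 fell (Trpc6) at an adjusted p under 0.05 in edgeR's quasi-likelihood test. That is 4.55% of the members tested, against 7.16% of all genes tested, of which 3.45% were higher and 3.71% lower. The median log2 fold change was 0.08 over the members and -0.01 over all genes. With library totals as the scale the balance turned: 6 members were called, 2 higher and 4 lower, with Piezo1 lost and Kcnab1, Kcnj15 and Kcnk6 added. In the authors' deposited table, 6 members were higher and 3 lower at 4 h.

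Kcne4 encodes an accessory subunit that restrains voltage-gated potassium channels (ENSMUSG00000047330, GRCm39 chromosome 1, 78794475 to 78797745). It read 5.72, 5.99 and 8.01 CPM in the 4 h vehicle libraries and 11.5, 9.68 and 10.9 CPM in the treated ones. The treated libraries were all above the vehicle libraries, and Kcne4 rose by 0.70 ± 0.16 on the log2 scale (SE, n = 3 per group; edgeR adjusted p = 0.0197).

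Piezo1 (ENSMUSG00000014444, GRCm39 chromosome 8, 123208437 to 123278068) read 704, 706 and 671 CPM in vehicle and 798, 990 and 862 CPM in treated libraries. The groups did not overlap, and the log2 fold change was 0.35 with an SE of 0.09 (edgeR adjusted p = 0.0413). Its span overlaps that of Ctu2 on the opposite strand, which held 8704 counts against 223074, and whether the counting used strand is not stated. Scaled by library totals, the value was 0.29 (adjusted p = 0.0643), and with limma-trend on log2(FPKM + 0.1) it was 0.36 (adjusted p = 0.0794).

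Kcnma1, the pore of the large-conductance calcium-activated potassium (BK) channel (ENSMUSG00000063142, GRCm39 chromosome 14, 23339499 to 24064559), was close to the detection limit at 4 h. It held 14, 19 and 13 counts in vehicle and 29, 42 and 38 in treated libraries, a rise of 1.32 ± 0.32 on the log2 scale (edgeR adjusted p = 0.0297). Every treated library exceeded every vehicle library. With limma-trend on log2(FPKM + 0.1) the call ended and the value was 0.43 (adjusted p = 0.165); the pseudocount lowers the fold of a gene at this level.

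Trpc6, a cation channel opened by diacylglycerol (ENSMUSG00000031997, GRCm39 chromosome 9, 8544143 to 8680742), moved down. It read 11.3, 10.2 and 9.61 CPM in vehicle and 6.98, 6.93 and 6.93 CPM in treated libraries. The treated libraries lay close together below all vehicle libraries, and the log2 value was -0.58 ± 0.13 (SE; edgeR adjusted p = 0.0189).

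Without treated replicate 2 or without treated replicate 3 no member passed edgeR's threshold at 4 h, while 18 and 16 members had an unadjusted p under 0.05. Calls over all genes fell too, from 7.16% to 3.03% and 2.82% of those tested. Without these replicates in turn the log2 fold changes were -0.57 and -0.57 for Trpc6, 0.77 and 0.69 for Kcne4, 1.18 and 1.30 for Kcnma1, and 0.26 and 0.37 for Piezo1. Without treated replicate 1 the call of Piezo1 alone held, without vehicle replicate 3 those of Kcne4 and Trpc6, and without vehicle replicate 2 those of Kcnma1 and Trpc6 were joined by Kcnj15 and Kcnj4. Without the vehicle library that stood apart, replicate 1, 10 members were called, 6 higher and 4 lower: Kcnma1 was lost (adjusted p = 0.0501), and Clcn1, Clcn5, Clcn7, Itpr2, Kcnab1, Kcnj15 and Trpc1 were added. In that fit 10 of 92 members were called, and 11.2% of all genes tested. At 4 h the replicate numbers were taken to pair the libraries, though the labels do not say what a number marks. The 4 calls reported first come from a fit without that pairing. With the number as a block 12 of 88 members were called, 8 higher and 4 lower, and 12.7% of all genes tested. The 12 were the same 4 genes with Cacng7, Clcn7, Itpr2, Kcnab1, Kcnj15, Kcnj4, Kcnk6 and Scn4a. In that blocked fit the log2 fold changes and adjusted p were 0.28 (0.0313) for Clcn7, then Itpr2 0.35 (0.0288), Cacng7 0.30 (0.0408), Kcnab1 -0.43 (0.0369) and Kcnj15 -0.33 (0.028).

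After 24 h most of the channel genes differed. Of 85 members tested 24 rose and 37 fell, 71.8% of them, against 74.7% of all genes tested (36.7% higher and 38% lower). A share of called members this near that of all genes is not a result about channels. By class the share called ran from 42.9% of the 7 calcium channel auxiliaries to 100% of the 2 Piezo genes and of the 5 calcium- or sodium-activated potassium pores. The median log2 fold change was -0.36 over the members and -0.02 over all genes, and with library totals as the scale it was -0.55 and -0.21, with 19 members higher and 41 lower. In the authors' deposited table at 24 h, 23 members were higher and 34 lower. Of the 39 genes with a mean FPKM of at least 1, 17 rose and 16 fell, with a median log2 fold change of 0.01. Of the 46 tested genes under it, 7 rose and 21 fell, with a median of -0.48. The negative median of the members thus lay in the genes of low level. No such split was made over all genes.

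**Figure D2:**
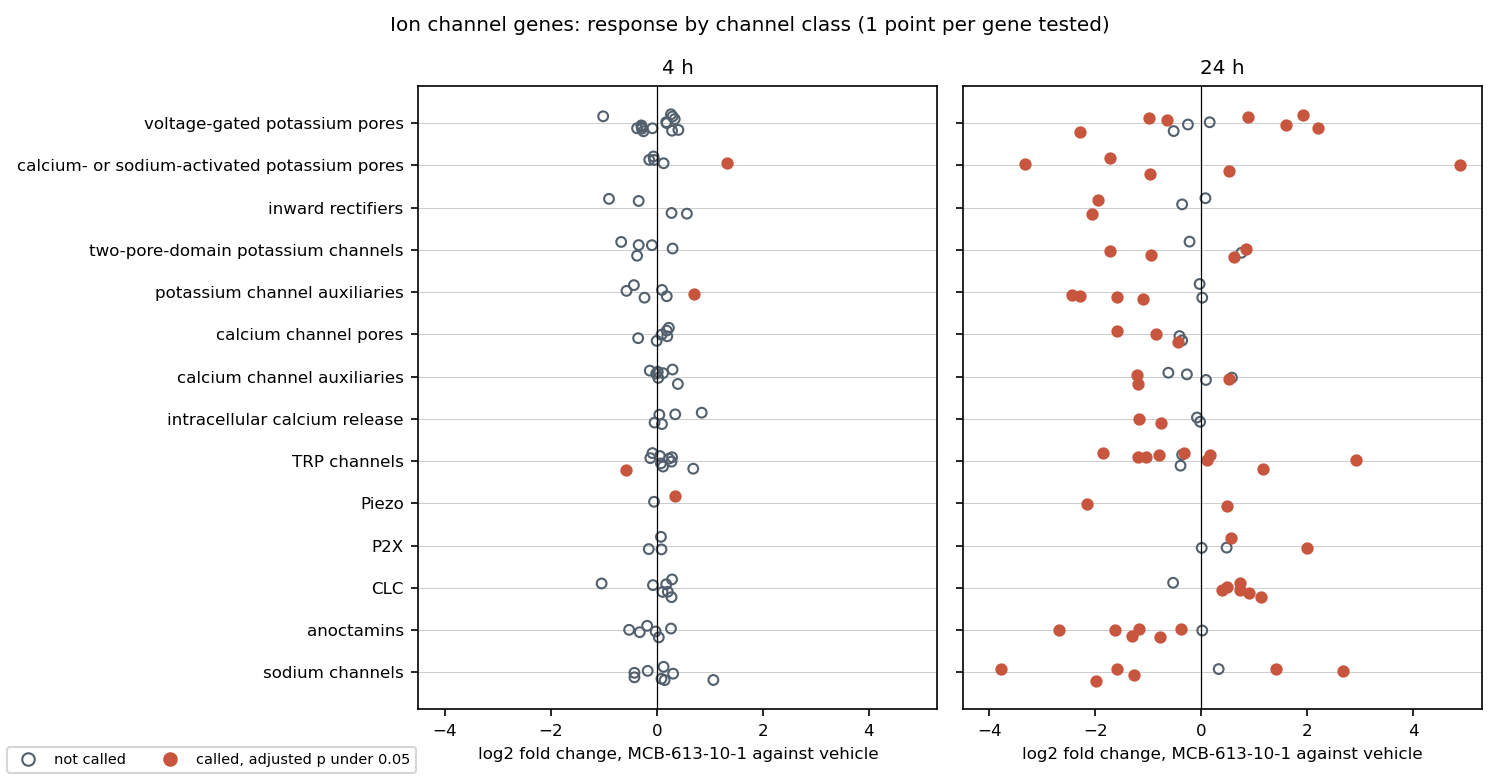
Log2 fold change of every tested member, MCB-613-10-1 against vehicle, by channel class, at 4 h (left) and 24 h (right), 1 point per gene from 3 libraries per group. Filled points passed an adjusted p of 0.05: 4 genes at 4 h and 61 at 24 h, where 6 of 7 CLC genes lie to the right of 0 and 6 of 7 anoctamins to the left.

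Of 7 CLC genes tested, 6 rose at 24 h, where 36.7% of all genes tested were higher. Their median log2 fold change was 0.74; with library totals as the scale 5 rose, Clcn2 dropping out, and the median was 0.55. Clcn1, the chloride channel of skeletal muscle, had a value of -0.53 and was not called.

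Clcn3, an endosomal exchanger (ENSMUSG00000004319), read 24.6, 22.6 and 24.6 CPM in vehicle and 53.5, 51.5 and 51.3 CPM in treated libraries at 24 h. The treated libraries were all above vehicle, a 2.18-fold rise (log2 1.12 ± 0.06 SE, edgeR adjusted p = 6.6e-12). It was not called at 4 h, where it was at 31.6 ± 4.95 CPM in vehicle and 34.2 ± 1.14 CPM in treated libraries (SD, n = 3).

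Clcn5, the exchanger of early endosomes (ENSMUSG00000004317), read 65.5, 72.1 and 65.7 CPM in vehicle and 124, 134 and 122 CPM with the compound, up by 0.90 ± 0.05 on the log2 scale (SE; edgeR adjusted p = 1.31e-11). Clcn6, of late endosomes, went from 12.4 ± 0.191 to 20.7 ± 1.68 CPM (log2 0.74, adjusted p = 4.48e-07). Clcn7, which serves the lysosome (ENSMUSG00000036636), went from 68.6 ± 4.26 to 115 ± 2.98 CPM (log2 0.74, adjusted p = 1.78e-10). These 3 genes showed no overlap between treated and vehicle libraries at 24 h. Clcn4 and Clcn2, named to complete the class, had log2 fold changes of 0.48 (adjusted p = 3.11e-08) and 0.39 (0.0106).

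At 4 h no CLC gene passed edgeR's test, 2 had an unadjusted p under 0.05, and DESeq2 called 1. The response at 24 h exceeded that at 4 h by a log2 difference of 1.02 for Clcn3 (adjusted p = 3.99e-06), 0.72 for Clcn5 (5.19e-05), 0.54 for Clcn6 (0.00276) and 0.47 for Clcn7 (0.000579). The vehicle level itself was not the same at the 2 times: Clcn5 was 108 ± 13.2 CPM in vehicle at 4 h and 67.8 ± 3.73 CPM at 24 h, and 122 ± 8.18 and 126 ± 6.49 CPM with the compound. Levels were scaled within each time, and 1 common scale changed group levels by a factor of 0.971 to 1.01.

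Of 7 anoctamin genes tested, 6 fell at 24 h, where 38% of all genes tested were lower. Their median log2 fold change was -1.17, and the counts were the same with library totals as the scale. Ano7, the remaining gene, had a value of 0.02 (edgeR adjusted p = 0.973). Ano1, the calcium-activated chloride channel (ENSMUSG00000031075), read 3.94, 3.01 and 2.63 CPM in vehicle and 0.651, 1.24 and 1.22 CPM in treated libraries. No treated library reached the vehicle range (log2 -1.62 ± 0.27 SE, edgeR adjusted p = 2.54e-05).

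Ano6, a phospholipid scramblase and the most abundant anoctamin (ENSMUSG00000064210), read 174, 162 and 170 CPM in vehicle and 98.6, 104 and 92.2 CPM with the compound. The fall was 1.72-fold (log2 -0.78 ± 0.05 SE, adjusted p = 5.71e-11). At 4 h the groups overlapped, at 193 ± 9.44 and 190 ± 4.78 CPM. An RNA on the opposite strand, Gm49172, overlaps Ano6 and held 5004 counts against 57449.

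**Figure D3:**
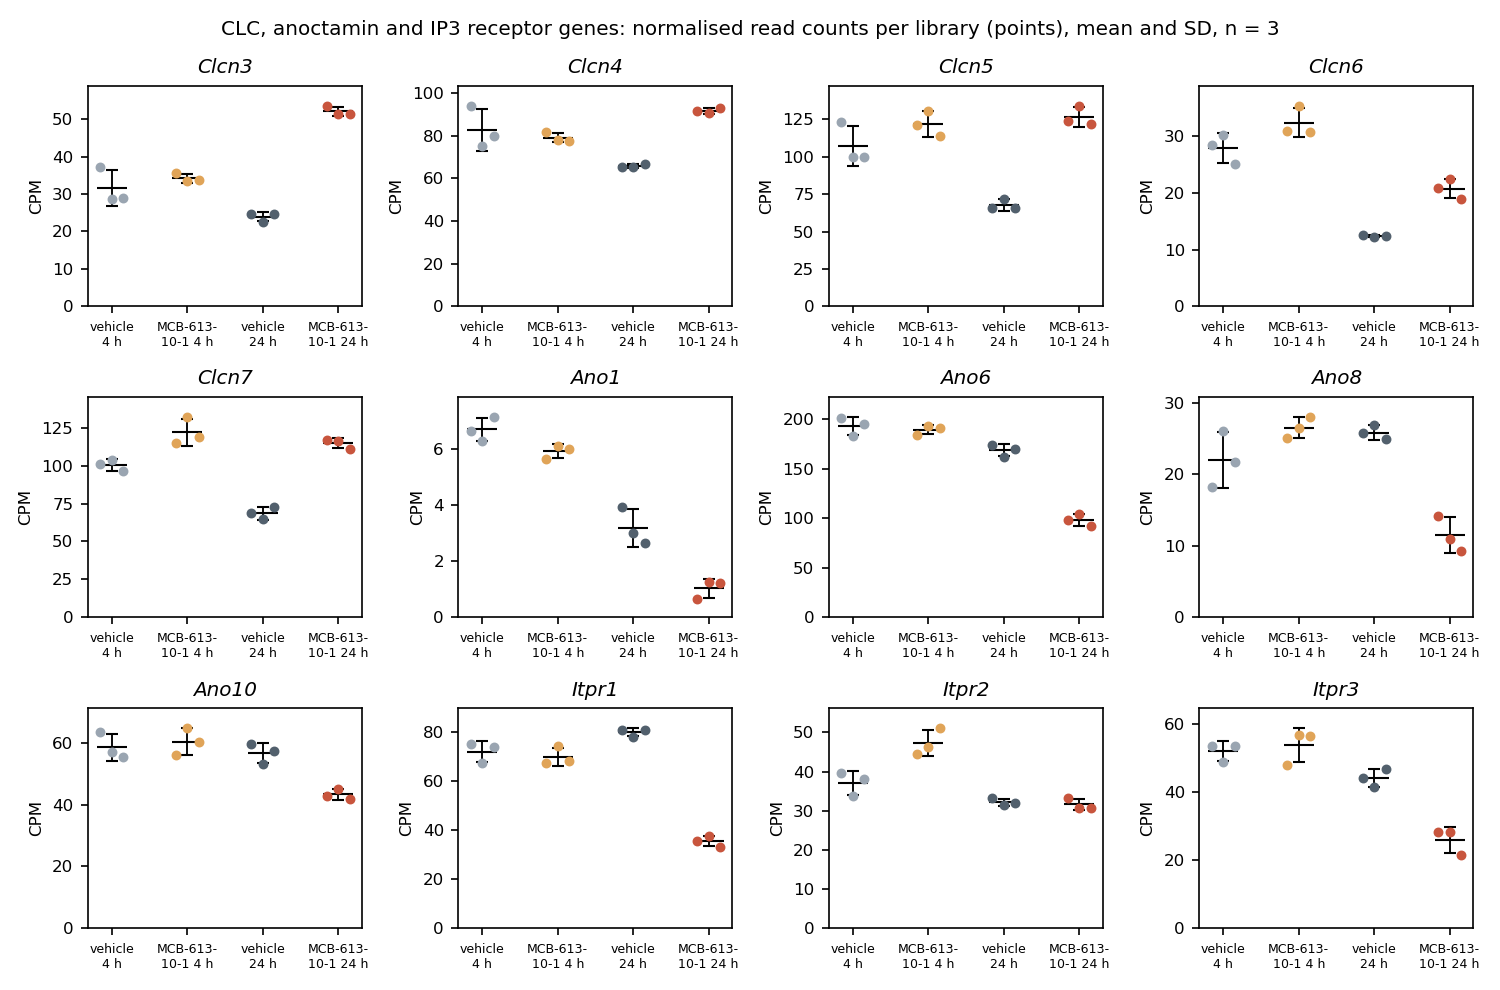
CPM per library (points) with mean and SD (n = 3) for 5 CLC genes, 4 anoctamins and the 3 IP3 receptor genes in the 4 groups; each axis starts at 0. At 24 h the treated libraries of the CLC genes lie above vehicle, those of the anoctamins, Itpr1 and Itpr3 below it, and those of Itpr2 overlap vehicle.

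Among the IP3 receptors, which release calcium from the endoplasmic reticulum, 2 of 3 fell at 24 h, where 38% of all genes tested were lower. Itpr1 (ENSMUSG00000030102) read 81.1, 78.3 and 81.1 CPM in vehicle and 35.8, 37.8 and 33.4 CPM in treated libraries, and Itpr3 (ENSMUSG00000042644) 44.1, 41.3 and 46.7 CPM against 28.2, 28.2 and 21.6 CPM. Treated and vehicle ranges were apart for both genes. The log2 fold changes were -1.17 ± 0.06 (edgeR adjusted p = 9.28e-13) and -0.76 ± 0.09 (3.06e-06).

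Itpr2 stayed at 32.1 ± 0.948 CPM in vehicle and 31.6 ± 1.45 CPM with the compound at 24 h (log2 -0.02 ± 0.07 SE, adjusted p = 0.747; scaled by library totals -0.22, adjusted p = 0.00793). Its 4 h values were 37.1 ± 3.08 and 47.3 ± 3.36 CPM (log2 0.35, adjusted p = 0.0539). Of the ryanodine receptors of muscle, Ryr1 was at 1.27 ± 0.106 and 1.2 ± 0.103 CPM at 24 h, and Ryr2 had under 1 CPM in every library.

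The 2 Piezo genes, both mechanically gated channels, were called in opposite directions at 24 h. Piezo1 read 422, 441 and 417 CPM in vehicle and 593, 601 and 592 CPM in treated libraries, a 1.4-fold rise (log2 0.48 ± 0.04 SE, edgeR adjusted p = 6.03e-09). Piezo2 (ENSMUSG00000041482) read 36.0, 32.6 and 34.9 CPM against 9.12, 6.61 and 7.66 CPM, a 4.45-fold fall (log2 -2.15 ± 0.10, adjusted p = 3.16e-13). Neither gene's groups overlapped. The fall of Piezo2 was a property of the 24 h libraries: at 4 h it read 59.6 ± 7.56 and 57.6 ± 3.15 CPM, and the responses differed by -2.10 (adjusted p = 3.1e-09). For Piezo1 the difference of 0.14 between the responses was not called (adjusted p = 0.26).

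P2X receptors are cation channels opened by extracellular ATP, and P2rx7 is the member that needs high ATP. P2rx7 (ENSMUSG00000029468, GRCm39 chromosome 5, 122781974 to 122829495) read 20.6, 21.0 and 21.8 CPM in 24 h vehicle and 90.7, 83.6 and 78.3 CPM in treated libraries. The treated libraries formed a separate high group, a 3.99-fold rise (log2 2.0 ± 0.07 SE, edgeR adjusted p = 1.39e-15).

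At 4 h P2rx7 read 96.7, 84.3 and 66.9 CPM in vehicle and 68.9, 82.2 and 72.9 CPM with the compound, with overlapping groups (log2 -0.15, adjusted p = 0.525). The treated level at 24 h was thus near all 4 h levels, and the 24 h vehicle libraries were the low ones. The responses differed by 2.15 ± 0.15 (adjusted p = 3.36e-09). Macrophages express P2rx7 too: of their 10 markers, 8 fell and 2 rose at 24 h, Cd14 (log2 1.09, edgeR adjusted p = 5.75e-07) and Csf1r (0.22, adjusted p = 0.00886). Their summed level, mostly Lyz2, was lower in the treated libraries, and the part of these cells in the rise of P2rx7 was not tested. P2rx4 read 48.8 ± 2.99 CPM in vehicle and 49.0 ± 4.09 CPM with the compound at 24 h (log2 0.01, adjusted p = 0.929; scaled by library totals -0.19, adjusted p = 0.0318).

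Of 11 genes with TRP symbols tested at 24 h, 4 rose and 5 fell, 81.8% against the 74.7% of all genes; 1 of the 4 was Trpc4ap, which is no channel, and another, Trpm1, reached the minimum of 50 counts only through the treated 24 h libraries. With library totals as the scale 2 rose and 6 fell. Trpc1, a subunit of calcium-permeable channels (ENSMUSG00000032839), read 10.1, 12 and 11.5 CPM in vehicle and 25.1, 25.4 and 24.8 CPM in treated libraries. It rose 2.24-fold with no overlap (log2 1.17 ± 0.09 SE, edgeR adjusted p = 4.7e-10).

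Trpc6, already lower at 4 h, read 3.57, 3.21 and 3.34 CPM in vehicle and 1.34, 0.651 and 0.827 CPM in treated libraries at 24 h. It was called lower at both times, with log2 -1.86 ± 0.26 at 24 h (adjusted p = 3.35e-06), and its responses differed by -1.28 (adjusted p = 0.000419). Trpc1 and Trpc6 were thus called in opposite directions at 24 h, and each gene's response differed between the times.

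Trpv2, a growth-factor-responsive cation channel, went from 11.6 ± 0.264 to 6.65 ± 0.676 CPM (log2 -0.79, edgeR adjusted p = 5.57e-06). Trpm4, the calcium-activated channel for monovalent cations, changed less, from 13.9 ± 0.437 to 11 ± 0.0956 CPM (log2 -0.33, adjusted p = 0.00428); a pseudogene on the other strand, Rpl14-ps1, lies within its span and held 29746 counts against 5627. Trpm7, a channel fused to a kinase, was at 106 ± 3.82 and 119 ± 6.59 CPM (log2 0.16, adjusted p = 0.00864), and Trpc4ap had a log2 value of 0.11 (adjusted p = 0.0437). Both calls ended with library totals as the scale, where the values were -0.03 and -0.09. Without treated replicate 2, Trpm7 had an adjusted p of 0.0578. The call of Trpc4ap also ended with DESeq2, with the replicate block, and without any 1 of 5 of the 6 libraries. Trpv4, an osmotically and mechanically sensitive channel, was at 2.12 ± 0.186 and 1.62 ± 0.234 CPM (log2 -0.39, edgeR adjusted p = 0.147). Its treated libraries all lay below vehicle, and with library totals as the scale Trpv4 was called lower (log2 -0.59, edgeR adjusted p = 0.0342).

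**Figure D4:**
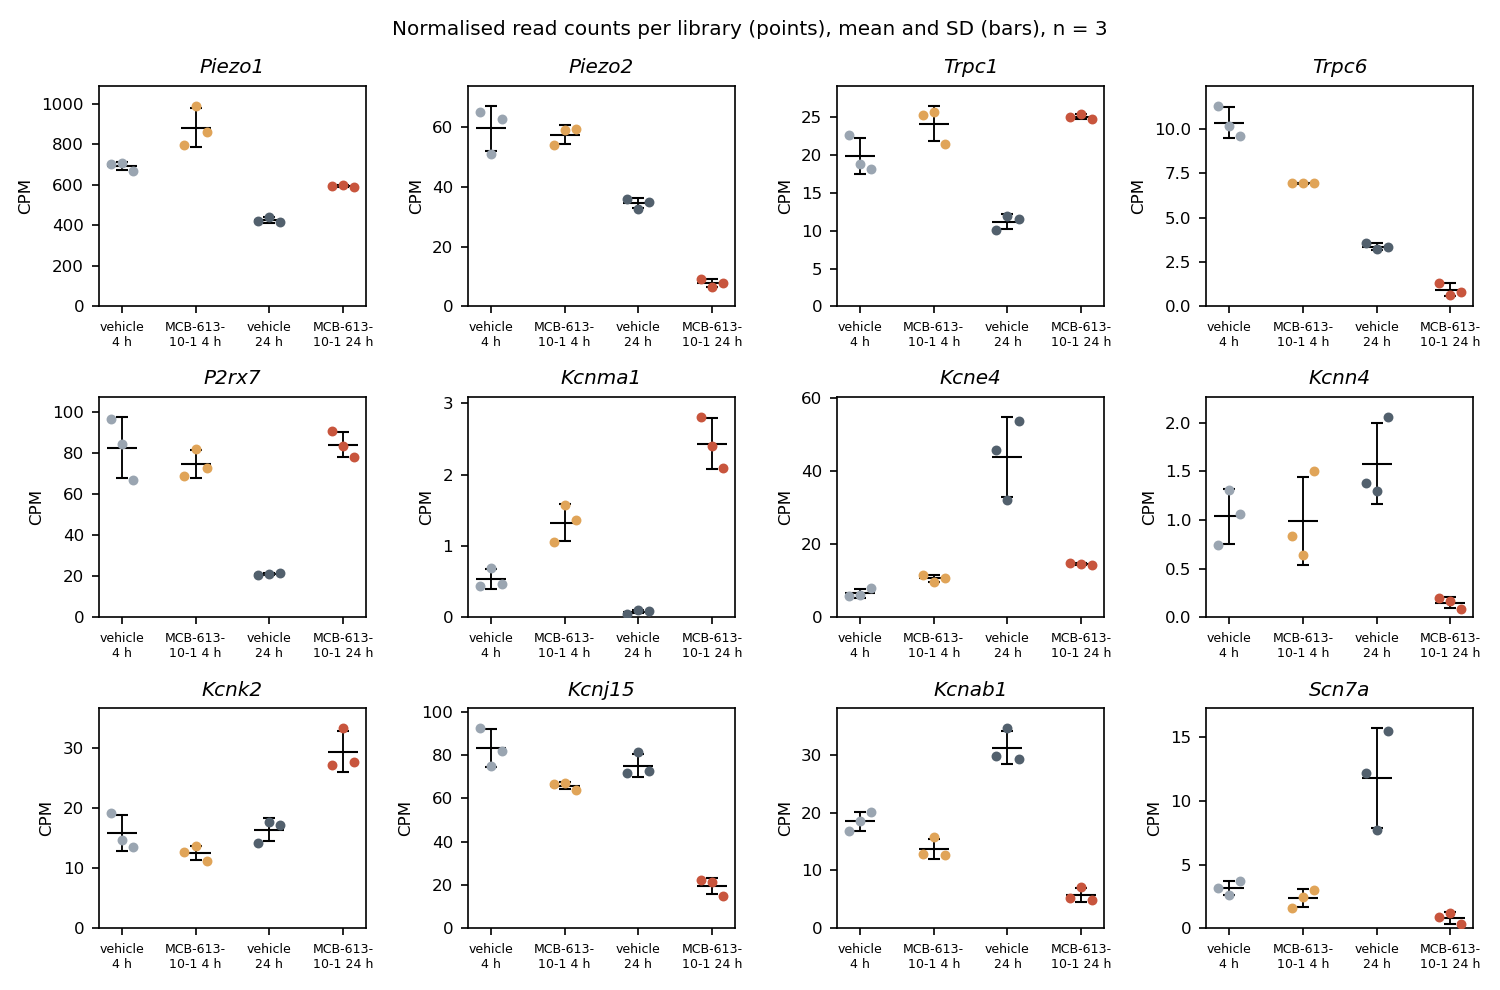
CPM per library (points) with mean and SD (n = 3) for 12 channel genes in the 4 groups; each axis starts at 0 and has its own range. At 24 h the treated libraries lie above vehicle for Piezo1, Trpc1, P2rx7, Kcnma1 and Kcnk2 and below vehicle for Piezo2, Trpc6, Kcnn4, Kcne4, Kcnj15, Kcnab1 and Scn7a.

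Potassium channels formed the largest group, with 31 genes tested at 24 h, of which 8 rose and 14 fell. That is 71% called, near the 74.7% of all genes tested. The widest changes lay among the pores that calcium opens. Kcnma1 held 2, 3 and 3 counts in the 24 h vehicle libraries and 69, 74 and 48 in the treated ones. It passed the expression filter of the 24 h test only through the treated libraries. The ratio of the scaled sums was 31.1, with a 95% exact interval of 15.5 to 73.1 that covers counting error only (fitted log2 4.88 ± 0.42 SE, edgeR adjusted p = 3.35e-09). Its level stayed low, at 2.44 ± 0.36 CPM with the compound, and the responses at the 2 times differed by 3.57 (adjusted p = 1.68e-05).

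Kcnn4, the intermediate-conductance channel KCa3.1 (ENSMUSG00000054342), went the opposite way. It held 52, 40 and 69 counts in vehicle and 5, 5 and 2 in treated libraries at 24 h, 10.3-fold lower with an interval of 5.74 to 20.4 (log2 -3.33 ± 0.44, adjusted p = 1.31e-06). At 4 h it was at 1.04 ± 0.287 and 0.991 ± 0.452 CPM. Kcnt2, a sodium-activated pore, went from 7.06 ± 1.3 to 10.2 ± 0.241 CPM (log2 0.53, adjusted p = 0.00152). Kcnmb1, the BK accessory subunit typical of smooth muscle, went from 2.2 ± 0.282 to 0.441 ± 0.206 CPM (log2 -2.29, adjusted p = 6.22e-06). Of 10 smooth muscle and pericyte markers 8 were tested and 6 fell at 24 h, and their part in the fall of Kcnmb1 was not tested. So the BK pore and this accessory gene were called in opposite directions.

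Of 10 voltage-gated pores tested at 24 h 4 rose and 3 fell, 70% called against 74.7% of all genes tested. Kcnh2, the hERG channel, went from 2.51 ± 0.202 to 4.66 ± 0.225 CPM (log2 0.89, adjusted p = 0.000153). Kcnd1, a transient outward channel of the Kv4 type, went from 6.98 ± 1.44 to 1.4 ± 0.463 CPM (log2 -2.29, adjusted p = 5.12e-08). For Kcnh2 and Kcnd1 the ranges of treated and vehicle libraries were apart.

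Of 6 potassium channel auxiliaries tested 4 fell at 24 h, and the median log2 fold change was -1.35. The share called was 66.7%, against 74.7% of all genes tested. Kcne4 read 45.8, 32.1 and 53.8 CPM in vehicle and 14.8, 14.6 and 14.3 CPM in treated libraries. The vehicle libraries were high and spread, the treated ones close together (log2 -1.59 ± 0.21 SE, adjusted p = 0.00118). Kcne4 was thus called higher at 4 h and lower at 24 h, the one member with such a pair of calls, and the responses differed by -2.29 (adjusted p = 3.64e-07). Its mean moved from 10.7 CPM at 4 h to 14.6 CPM at 24 h in treated cells and from 6.57 to 43.9 CPM in vehicle.

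Kcnab1, a beta subunit of Kv channels with an oxidoreductase fold (ENSMUSG00000027827), read 29.8, 34.6 and 29.3 CPM in vehicle and 5.17, 7.1 and 4.92 CPM with the compound at 24 h. The treated libraries were far below vehicle, a 5.39-fold fall (log2 -2.43 ± 0.12 SE, edgeR adjusted p = 2.69e-11). At 4 h it was at 18.5 ± 1.61 and 13.7 ± 1.7 CPM (log2 -0.43, adjusted p = 0.064).

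Inward rectifiers hold the membrane near the potassium potential. Of 4 tested at 24 h 2 fell, 50% called against 74.7% of all genes tested. Kcnj15, the most abundant (Kir4.2, ENSMUSG00000062609), read 71.6, 81.2 and 72.4 CPM in vehicle and 22.1, 21.4 and 15.1 CPM in treated libraries, with no overlap (log2 -1.94 ± 0.14 SE, edgeR adjusted p = 8.16e-06). At 4 h its values were 83.1 ± 8.74 and 65.8 ± 1.75 CPM (log2 -0.34, adjusted p = 0.0528). Kcnj5, a G-protein-gated rectifier, went from 1.41 ± 0.415 to 0.333 ± 0.14 CPM (log2 -2.06, adjusted p = 0.000164). Kcnj2, the main rectifier of ventricular muscle, held 62 counts in all and was too low to test.

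Two-pore-domain channels carry the potassium leak, and of 6 tested at 24 h 2 rose and 2 fell. That is 66.7% called, against 74.7% of all genes tested. Kcnk2, the mechanically sensitive TREK-1 channel (ENSMUSG00000037624), read 14.3, 17.8 and 17.3 CPM in vehicle and 27.2, 33.4 and 27.8 CPM in treated libraries at 24 h, all above vehicle (log2 0.84 ± 0.10 SE, edgeR adjusted p = 5.65e-07). At 4 h it had leaned down without a call, at 15.9 ± 3.04 and 12.6 ± 1.22 CPM (log2 -0.34, adjusted p = 0.199), and the responses differed by 1.19 (adjusted p = 3.66e-05). A processed pseudogene, Pdcd5-ps, lies within Kcnk2 on the same strand and held 3250 counts against 6438. Kcnk5, an alkali-sensitive channel, went from 2.66 ± 0.486 to 4.05 ± 0.678 CPM (log2 0.61, adjusted p = 0.0109; 0.071 with library totals as the scale, 0.0607 without vehicle replicate 1 and 0.0598 without treated replicate 3).

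Pore genes of voltage-gated calcium channels were lower or not called at 24 h: of 5 tested 3 fell. The share called was 60%, against 74.7% of all genes tested. Cacna1c, the L-type pore Cav1.2 (ENSMUSG00000051331), read 22.5, 19.6 and 24.8 CPM in vehicle and 12.4, 11.8 and 12.7 CPM in treated libraries. The ranges were apart (log2 -0.86 ± 0.10 SE, edgeR adjusted p = 1.5e-07), while the 4 h values were 27.2 ± 1.45 and 29.0 ± 0.367 CPM. Dcp1b overlaps Cacna1c on the opposite strand and held 946 counts against 7990. Of 7 auxiliary genes 1 rose and 2 fell, 42.9% called. Cacng7, a gamma subunit better known as a partner of glutamate receptors, was the one that rose, from 37.2 ± 1.34 to 53.8 ± 0.689 CPM (log2 0.53, adjusted p = 1.38e-07), and Cacnb3 and Cacnb2, named to complete the count, had values of -1.19 and -1.21.

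Sodium channel genes held the largest fall of all members. Scn7a encodes Nax, a sodium-sensing relative of the voltage-gated channels (ENSMUSG00000034810). It read 12.2, 7.68 and 15.5 CPM in vehicle and 0.895, 1.24 and 0.348 CPM in treated libraries at 24 h. The vehicle libraries varied, and the treated ones were all far below (log2 -3.77 ± 0.45 SE, edgeR adjusted p = 0.000446). At 4 h it was at 3.17 ± 0.542 and 2.37 ± 0.693 CPM, and the responses differed by -3.35 (adjusted p = 4.65e-05). Schwann cells also express Scn7a; 5 of their markers were tested, of which 2 fell at 24 h, most of the summed level being Tubb3, and their part in the result was not tested.

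Scn2a, a pore of the voltage-gated type, went from 3.14 ± 0.645 to 0.783 ± 0.155 CPM at 24 h (log2 -1.99, edgeR adjusted p = 1.61e-06). In all, of 7 sodium channel genes tested 2 rose and 4 fell, 85.7% called against 74.7% of all genes tested.

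Between the times, the response differed for 52 of 98 members tested, 15 toward higher and 37 toward lower values at 24 h. This is 53.1% of the members, against 53.8% of all genes tested (26.7% higher and 27.1% lower), with a median difference of -0.40 over the members and 0.00 over all genes. The 15 include Trpc5os, which is no channel and held 77 counts in all (log2 difference 2.59, edgeR adjusted p = 0.0402). Trpc5os reached the count minimum for members only through the treated 24 h libraries, so its call is partly a product of that rule. Kcnmb3 and Trpm1 reached the minimum in the same way, and their differences were not called. By pair of calls, 2 members were higher at both times (Piezo1 and Kcnma1), 1 lower at both (Trpc6) and 1 higher then lower (Kcne4). A further 21 were not called at 4 h and higher at 24 h, and 35 not called and then lower. Over all genes tested 7.16% were called at 4 h and 74.7% at 24 h. These pairs were not counted over all genes, so their numbers are not a result about channels.

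Other channel and calcium-handling genes, a list of 73 that holds no member, were counted for comparison. At 4 h 67 were tested, and 2 rose, the store-operated channel gene Orai2 (log2 0.46, edgeR adjusted p = 0.0259) and the scaffold gene Homer3 (0.43, adjusted p = 0.0172), and 1 fell, the volume-regulated channel subunit Lrrc8c (-0.39, adjusted p = 0.0386). At 24 h 23 of 64 rose and 28 fell, with a median of -0.08. The share of the list called was 4.48% at 4 h, against 7.16% of all genes tested. At 24 h it was 79.7%, against 74.7% of all genes tested. Members and this list thus differed in median log2 fold change at 24 h, -0.36 against -0.08, a description with no test. Members with a mean FPKM of at least 1 had a median of 0.01, and the list was not split by level.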

How the data were processed

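RNA was sequenced in 12 libraries of mouse cardiac fibroblasts, 3 per group. Per the submitters' processing notes, which give no role or order, the tools were HISAT2 2.0.5, featureCounts 1.5.0-p3, DESeq2 and DESeq (versions not given), with the build GRCm39. Per the file headers, the authors deposited 1 table per time with raw counts for each gene in each library, the count signal divided by a size factor, FPKM, and their own log2 fold change, p-value and adjusted p-value. The tables held 26240 genes at 4 h and 27020 at 24 h.

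Raw counts were tested with edgeR 4.0.16 (quasi-likelihood, robust, TMM scaling, filterByExpr; limma 3.58.1, R 4.3.3), each time on its own 6 libraries and the difference between the responses as an interaction on all 12, where a gene absent from 1 table entered as 0 counts. P-values were adjusted by Benjamini-Hochberg across the whole table, with calls made under 0.05. CPM are after TMM scaling within a time, and log2 fold changes are treated against vehicle. The members, classes, marker lists and motifs were chosen with earlier results of these data known.

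The names given are, first, up to 10 rises and 10 falls at each time. These were called members without overlap between groups and with a deposited FPKM of at least 0.2 in the higher group. The most abundant gene of each class and a fixed list of channels known in fibroblasts or heart were named too. Last came the 5 largest called differences between the times in each direction, under the same FPKM minimum. Some members that fit this rule are not reported here. Same-numbered libraries deviated together at 4 h (r = 0.166, 0.152 and 0.2 for replicates 1 to 3), above 0.1 in every pair, so the numbers were taken to pair them there; the labels do not say what a number marks. Alternatives were DESeq2 1.42.0, other scalings, no filter, a replicate block, all 12 libraries, limma-trend on log2(FPKM + 0.1) and leaving out each library.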

Additional observations from a re-analysis of the deposited data

Results flagged for a closer look

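The response of 52 members differed between 24 h and 4 h in the interaction test of edgeR. The values that follow are the log2 fold change at 24 h minus that at 4 h. Among called genes past the FPKM minimum for naming, the most negative were those of Scn7a (-3.35), Kcnn4 (-3.27), Kcne4 (-2.29), Piezo2 (-2.10) and Kcnmb1 (-2.06). Large positive values, among genes past the FPKM minimum, were those of P2rx7 (2.15), Kcnk2 (1.19), Clcn3 (1.02) and Trpc1 (0.89). For P2rx7 the 4 h and 24 h vehicle libraries stood further apart than the treated libraries of the 2 times did. By group mean the same held for Scn7a, Kcne4, Kcnmb1 and Trpc1.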

How the results depend on the processing

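At 4 h the number of members called, 4 as reported, was 9 with DESeq2, 8 without the filter, 12 with the replicate block, 9 with all 12 libraries in the fit and 2 with limma-trend on FPKM values, where Kcnma1 and Piezo1 were lost; scaling by library totals gave 6, of which 2 were higher; leaving out each library gave 0 to 10. Over all genes tested, 7.16% were called at 4 h as reported, 5.41% with DESeq2, 5.94% without the filter and 12.7% with the block. The share was 13.5% with all 12 libraries, 5.22% with limma-trend, 8.1% with library totals and 2.82% to 11.2% without 1 library. At 24 h, 61 calls became 57 to 61 when a library was left out, and the difference between the responses, 52 calls, became 44 to 52. The same-numbered libraries did not deviate together at 24 h (r = 0.051, 0.04 and -0.083); there the replicate block gave 60 calls, Trpc4ap dropping out, and for the difference it gave 53. Scaling by library totals moved the median of all genes from -0.02 to -0.21 at 24 h and lowered the share of calls that were higher from 49.1% to 39% over all genes there and from 48.2% to 34.5% at 4 h. Under it Trpm7 (-0.03), P2rx4 (-0.19) and Trpc4ap (-0.09) changed sign at 24 h, and the scale's own shift is of that size. No called value of a named member moved by over 1.5 times when 1 library was left out. Depth limits the low genes: 16 members could not be tested, and a call missing there says nothing of their response.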

Other observations

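Among members below the FPKM minimum for naming, 2 that were picked after their values were seen went from a few counts to more at 24 h. Scn4a, the sodium channel of skeletal muscle, held 3, 2 and 2 counts in vehicle and 12, 15 and 9 in treated libraries, a ratio of 6.7 (95% exact interval 2.94 to 17.8). Kcnc2, a fast Kv3 channel, held 7, 3 and 6 against 17, 14 and 16, a ratio of 3.83 (2.13 to 7.23). The intervals cover counting error only. At 4 h Scn4a held 18, 26 and 9 counts in vehicle and Kcnc2 46, 33 and 18, above their counts in vehicle at 24 h.

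In the list of other channel and calcium-handling genes, the plasma membrane calcium pump Atp2b4 (log2 2.14), the calcineurin regulator Rcan1 (1.98) and the scaffold Homer1 (1.31) rose at 24 h, and the sodium-calcium exchanger Slc8a1 (-2.05), the ryanodine receptor partner Fkbp1b (-2.06) and the lysosomal channels Tmem175 (-2.05) and Tpcn1 (-1.41) fell in edgeR. They were picked as the largest rises and falls of the list. Rcan1 read 68 CPM in vehicle and 68.6 CPM with the compound at 4 h, and 19.8 and 78.2 CPM at 24 h. Homer1 read 39.6 and 39.3 CPM at 4 h, and 15.5 and 38.3 CPM at 24 h. For both genes the 24 h vehicle libraries were the low ones. Atp2b4 read 7.27 and 10.5 CPM at 4 h, and 6.8 and 30.2 CPM at 24 h.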
